A study of Saccharomyces cerevisiae with 12 samples.

Results

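The 8 genes described here are MET4, MET28, CBF1, MET31, MET32 and MET30, which regulate sulfur metabolism in budding yeast, and SAM1 and SAM2, which encode the S-adenosylmethionine synthases. They were chosen by name, with earlier results of these data known. On the arrays they were found by their systematic names, 1 probe in 2 spots for each gene, among 6224 genes with probes. Transcripts were measured on single-colour Agilent arrays of the Saccharomyces cerevisiae strain L40, 4 arrays in each of 3 groups. The first group stably expressed the intrabody scFv-58F, an antibody fragment made inside the cell and directed against histone H3 acetylated at K9 (58F below). The second stably expressed scFv-112A, the control intrabody, whose target is the acetylated integrase of HIV-1 (112A), and the third was L40 wild type with no intrabody. Per the labels' protocols, a single colony started each culture, and the precultures of 58F and 112A were grown in medium lacking leucine while those of wild type were grown in rich medium. The last overnight culture of all 3 groups was in rich YPD medium, and no treatment was given. The labels do not state whether replicates were grown separately, so the p-values measure the spread between these samples, which may be technical. Cells were not told apart on these arrays, so a lower transcript level per cell and fewer cells with the transcript cannot be distinguished.

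Yeast takes up sulfate, reduces it and builds it into homocysteine, from which methionine and cysteine are made. Met4 is the activator of these genes; it does not bind DNA by itself and is brought to promoters by Cbf1 or by the zinc finger proteins Met31 and Met32, with Met28 stabilising the complex. When sulfur compounds are plentiful, the ubiquitin ligase SCF with its F-box subunit Met30 ubiquitylates Met4 and restrains it. S-adenosylmethionine, made from methionine and ATP, is the cell's main methyl donor. MET28, MET32 and MET30 are themselves known targets of Met4.

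Levels are given as log2 of the processed Cy3 signal minus the log2 of the array's own 75th percentile, so that 0 is the level of a gene at that percentile. Changes are differences of such levels between groups, fitted by limma over 5827 genes, with the SE of the fit. A gene was called changed at a Benjamini-Hochberg adjusted p under 0.05 over all these genes. All 8 genes were well above background on all 12 arrays, and the weakest of their spots was 27.0 times as bright as its local background (MET31). Levels of different genes come from different probes and are not compared.

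By the 75th percentile of the signal, the arrays of 58F (4739 to 5782), of 112A (4984 to 5254) and 3 of wild type (5592 to 6047) were of similar brightness, while wild type replicate 1 stood apart at 9362. Between 86.9% of gene spots (112A replicate 3) and 94.6% were well above background on an array. The 4 arrays of each group lay on 1 slide and were scanned together, so slide and group cannot be told apart. LEU2, the leucine synthesis gene that medium without leucine selects for, exceeded its wild type level by 4.63 ± 0.08 on the log2 scale in 58F (limma, adjusted p = 2.95e-12) and by 4.36 ± 0.08 in 112A (adjusted p = 5.99e-12).

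Transcripts of both S-adenosylmethionine synthase genes, of MET32 and of MET30 were lower in 58F cells than in cells with the control intrabody 112A. SAM1 was 1.67-fold lower, MET32 1.59-fold, SAM2 1.30-fold and MET30 1.26-fold. These 4 of the 8 genes were called lower and 0 were called higher; over all genes tested 32.0% were called in this comparison, 17.9% lower and 14.1% higher. The arrays of the 2 groups did not overlap for 5 of the 8 genes, against 34.4% of all genes. The median change of the 8 genes was -0.24, against -0.02 over all genes.

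In the comparison of 58F with wild type, 6 of the 8 genes were called lower and 0 higher, with a median change of -0.28 against -0.01 over all genes. Of all genes tested, 61.9% were called here, 32.2% lower and 29.7% higher. The arrays did not overlap for 4 of the 8 genes, against 57.7% of all genes. SAM1 was 2.22-fold lower and MET32 1.42-fold lower, and MET4, MET28, MET31 and MET30 were between 1.19-fold and 1.28-fold lower. Without wild type replicate 1, 6 genes were again called, against 61.5% of all genes.

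In the comparison of 112A with wild type, MET4, MET31 and SAM1 were called lower and MET32 higher, so 3 fell and 1 rose, with a median change of -0.09 against -0.01 over all genes. Of all genes, 48.3% were called in this comparison, 25.5% lower and 22.8% higher, so the 4 of 8 called are close to the share of all genes. Arrays did not overlap for 39.7% of all genes and for 2 of the 8. These 2 were MET4 and MET32, and in MET32 the nearest arrays of the 2 groups were level to 2 decimals. Without wild type replicate 1, 2 of the 8 were called, MET4 and MET31, a smaller share than the 49% of all genes called in that fit. The 3 comparisons share arrays, each group standing in 2 of them, so they do not support each other.

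**Figure D1:**
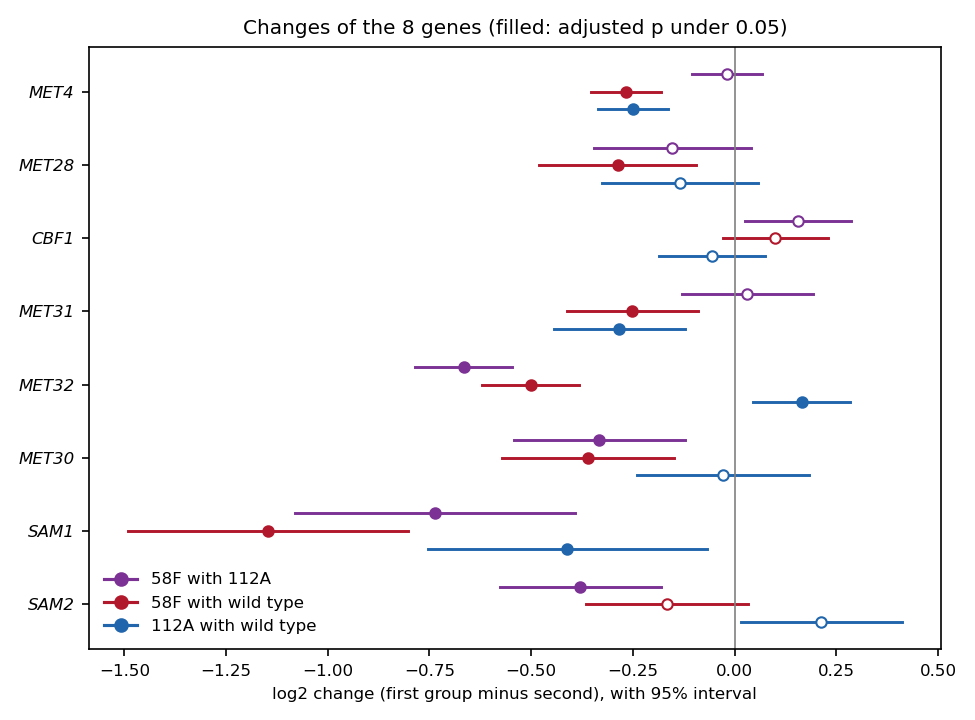
Log2 changes of the 8 genes (rows) with 95% intervals (horizontal lines) in the 3 comparisons between groups; filled points have an adjusted p under 0.05. The points for SAM1 lie farthest to the left, at -0.74, -1.15 and -0.41, and MET32 is left of 0 in both comparisons of 58F and right of 0 for 112A with wild type.

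MET4 (YNL103W), the activator, was at -0.24, -0.32, -0.28 and -0.34 on the 58F arrays, at -0.28, -0.30, -0.30 and -0.24 on the 112A arrays and at -0.06, 0.03, -0.04 and -0.05 on the wild type arrays. Every array of either intrabody strain was below every wild type array, and the 58F and 112A arrays lay among each other. The change was -0.27 ± 0.04 for 58F with wild type (limma, adjusted p = 0.000118) and -0.25 ± 0.04 for 112A with wild type (adjusted p = 0.00042). Between 58F and 112A it was -0.02 ± 0.04 (adjusted p = 0.749), with a 95% interval of -0.11 to 0.07. Both calls against wild type held under all 22 alternative settings.

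MET28 (YIR017C), the stabilising cofactor of the Met4 complex, had levels of 0.66, 0.63, 0.80 and 0.56 in 58F, 0.91, 0.90, 0.59 and 0.87 in 112A, against 0.76, 0.93, 1.06 and 1.06 in wild type. The 58F and wild type arrays overlapped in one place, where 58F replicate 3 exceeded wild type replicate 1. MET28 fell by 0.29 ± 0.09 in 58F relative to wild type (limma, adjusted p = 0.0137). Its change was -0.15 ± 0.09 for 58F with 112A (adjusted p = 0.204), with a 95% interval of -0.35 to 0.04, and -0.13 ± 0.09 for 112A with wild type (adjusted p = 0.228). On 112A replicate 3, the array with the smallest share of spots above background, MET28 was well below the other 3 arrays of its group. Without that array the change for 58F with 112A was -0.23 (adjusted p = 0.0482) and was called.

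CBF1 (YJR060W), a DNA-binding protein that also acts at centromeres, was at -1.002, -0.97, -0.89 and -0.98 in 58F, at -1.18, -1.12, -1.07 and -1.09 in 112A and at -1.23, -0.93, -1.04 and -1.05 in wild type. All 58F arrays were above all 112A arrays, and the wild type arrays spanned both. The change of 0.16 ± 0.06 for 58F with 112A did not pass the test (limma, adjusted p = 0.0646), nor did 0.10 ± 0.06 for 58F with wild type (adjusted p = 0.162) or -0.06 ± 0.06 for 112A with wild type (adjusted p = 0.464). The first of these was called when wild type replicate 1 was left out of the shared estimate of spread (adjusted p = 0.0175), when wild type replicate 2 was left out (adjusted p = 0.0441) and under 3 other settings. The second was called without wild type replicate 2, at a change of 0.15 (adjusted p = 0.0458). CBF1 had the narrowest span of group means among the 8 genes, 0.16 on the log2 scale.

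MET31 (YPL038W), a zinc finger protein that recruits Met4, stood at -1.83, -1.76, -1.68 and -1.69 in 58F, at -1.73, -1.83, -1.60 and -1.92 in 112A and at -1.36, -1.62, -1.49 and -1.48 in wild type. The 58F arrays all lay below the wild type arrays, whereas 1 array of 112A came just above the lowest of wild type. MET31 fell by 0.25 ± 0.07 in 58F (limma, adjusted p = 0.0107) and by 0.28 ± 0.07 in 112A (adjusted p = 0.00824), each relative to wild type. The intrabody strains differed by 0.03 ± 0.07 (58F minus 112A, adjusted p = 0.776), with a 95% interval of -0.13 to 0.19.

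MET32 (YDR253C), the paralogue of MET31, had levels of -0.62, -0.72, -0.58 and -0.70 in 58F, of 0.13, 0.00, -0.03 and -0.05 in 112A and of -0.20, -0.21, -0.16 and -0.05 in wild type. All 4 arrays of 58F were far below every array of the other groups, and the highest wild type array was level with the lowest 112A array to 2 decimals. The change was -0.67 ± 0.05 for 58F with 112A (limma, adjusted p = 5.88e-05) and -0.50 ± 0.05 for 58F with wild type (adjusted p = 1.23e-05). Both stayed called under all 22 alternatives. For 112A with wild type MET32 rose by 0.16 ± 0.05 (adjusted p = 0.0271). This smaller call was lost in 5 alternatives, among them the fits without wild type replicate 1 (adjusted p = 0.0527), wild type replicate 2 (0.0715), wild type replicate 3 (0.0576) or 112A replicate 1 (0.0827). The spots of the MET32 probe taken one at a time gave changes of -0.58 and -0.75 for 58F with 112A, the widest gap between spots among the 8 genes.

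MET30 (YIL046W), the F-box subunit that directs the ubiquitin ligase to Met4, was at 2.31, 2.13, 2.41 and 2.30 in 58F, at 2.70, 2.66, 2.44 and 2.69 in 112A and at 2.37, 2.81, 2.73 and 2.68 in wild type. The 58F arrays were low as a group, but 112A replicate 3 came close to the highest of them and wild type replicate 1 lay below it. MET30 changed by -0.33 ± 0.10 for 58F with 112A (limma, adjusted p = 0.0215) and by -0.36 ± 0.10 for 58F with wild type (adjusted p = 0.0065). The first call was lost without 58F replicate 2 (adjusted p = 0.0664), 112A replicate 1 (0.0603) or 112A replicate 4 (0.0517). The second was lost under quantile scaling between arrays, where the change was -0.16 (adjusted p = 0.0948). Between 112A and wild type the change was -0.03 ± 0.10 (adjusted p = 0.83), with a 95% interval of -0.24 to 0.18.

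**Figure D2:**
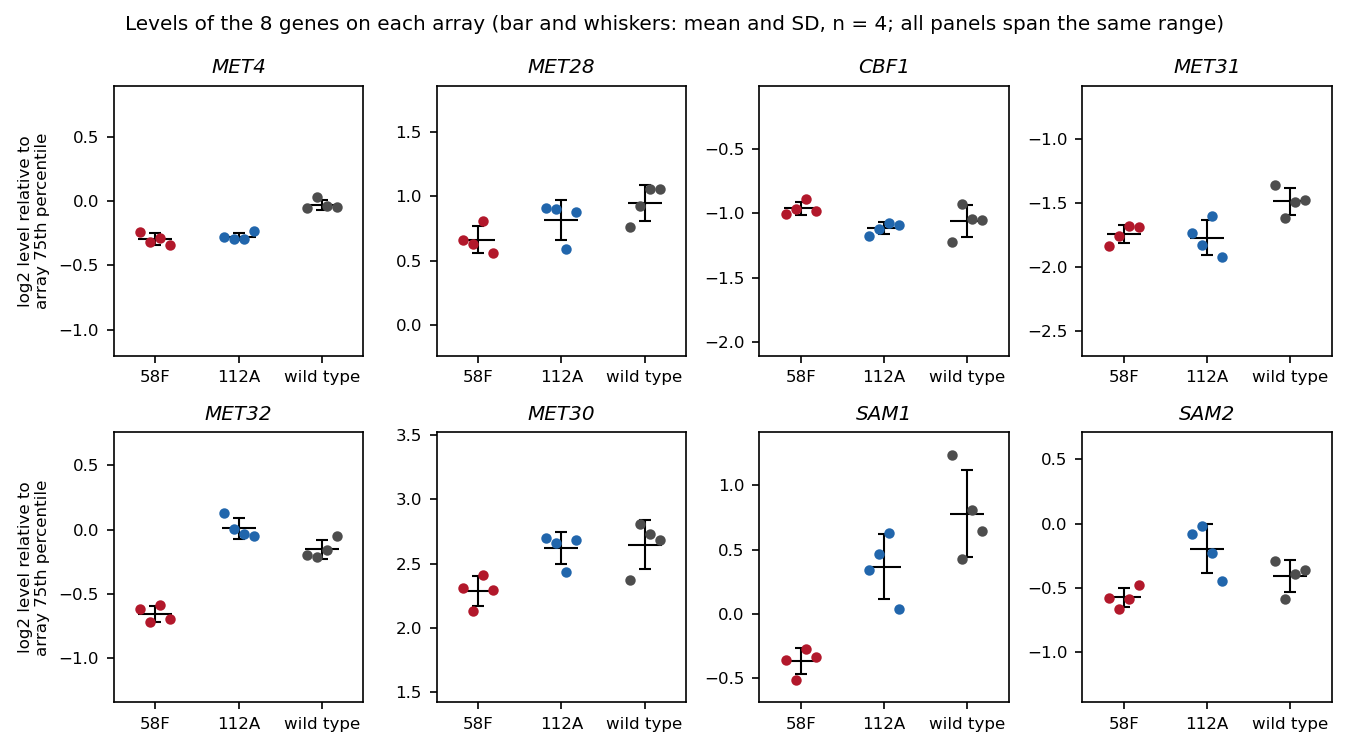
Level of each of the 8 genes on every array (points; log2 relative to the array's 75th percentile) in 58F, 112A and wild type, with the mean and SD of 4 arrays; each panel covers the same log2 range at its own position. MET32 and SAM1 are lower on all 58F arrays than on any other array, and MET4 is lower on all 8 intrabody arrays than in wild type.

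SAM1 (YLR180W), one of the synthase genes, showed the widest span of group means among the 8, 1.15 on the log2 scale. Its levels were -0.36, -0.51, -0.28 and -0.33 in 58F, 0.34, 0.46, 0.63 and 0.04 in 112A, against 1.23, 0.43, 0.81 and 0.65 in wild type. All 58F arrays were below all others, while 112A and wild type overlapped and were more scattered than 58F: the SD was 0.10 in 58F and 0.25 in 112A, against 0.34 in wild type. SAM1 fell by 0.74 ± 0.16 in 58F relative to 112A (limma, adjusted p = 0.00477) and by 1.15 ± 0.16 relative to wild type (adjusted p = 6.82e-05), and both calls held under all 22 alternatives. Without wild type replicate 1, on which SAM1 was highest, the change for 58F with wild type was -0.996 (adjusted p = 7.94e-05).

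The SAM1 difference between 112A and wild type was -0.41 ± 0.16 (limma, adjusted p = 0.0484), just inside the threshold, and it was lost in 15 of 22 alternatives. It was -0.26 without wild type replicate 1 (adjusted p = 0.12) and -0.30 without 112A replicate 4 (adjusted p = 0.136). The group means of SAM1 ran from 58F, the lowest, through 112A to wild type, and the arrays of the upper pair overlapped.

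SAM2 (YDR502C), the other synthase gene, was at -0.58, -0.66, -0.59 and -0.47 in 58F, at -0.08, -0.02, -0.23 and -0.45 in 112A and at -0.29, -0.59, -0.39 and -0.36 in wild type. The 112A arrays were highest as a group, although 112A replicate 4 was close to the highest 58F array. SAM2 fell by 0.38 ± 0.09 in 58F relative to 112A (limma, adjusted p = 0.00855), and this call held under all 22 alternatives. The change was -0.17 ± 0.09 for 58F with wild type (adjusted p = 0.13), with a 95% interval of -0.36 to 0.03. For 112A with wild type it was 0.21 ± 0.09 (adjusted p = 0.0716); without 112A replicate 4 it was 0.30 (adjusted p = 0.0112), and with the authors' deposited values it also passed (adjusted p = 0.0418).

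In the order of group means, only some neighbours were separated. In MET4 and MET31, 58F and 112A did not differ by test and wild type was above both. In MET32, 58F was lowest, wild type intermediate and 112A highest, with the upper pair close together. In MET30, 58F was lowest and 112A and wild type did not differ by test. In MET28 the order was 58F, 112A, wild type, and only its ends were separated.

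MET31 with MET32 and SAM1 with SAM2 are pairs of related genes with overlapping functions. Whether the members of a pair changed unequally between groups was tested. For each array the log2 level of one gene was subtracted from that of the other, which removes the scaling of the array. Each group lay on its own slide, so an unequal change cannot be told apart from a slide difference between the probes. The absolute size of such a difference depends on the probes and is not read; only its change between groups is. How much signal each probe takes from the related copy was not measured.

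MET32 minus MET31 was 1.21, 1.04, 1.10 and 0.99 on the 58F arrays, 1.86, 1.83, 1.57 and 1.87 on the 112A arrays and 1.16, 1.41, 1.34 and 1.43 on the wild type arrays. In 58F relative to 112A, MET32 fell while MET31 changed by 0.03 ± 0.07 and was not called. The difference between the genes shifted by -0.70 on the log2 scale, with no overlap of arrays (exact permutation test, 2-sided, p = 0.0286, adjusted p = 0.0343 over the 6 pair comparisons). Relative to wild type the difference in 58F was -0.25 (exact permutation p = 0.0571, adjusted p = 0.0571) and arrays overlapped. In 112A relative to wild type it was 0.45 (exact permutation p = 0.0286, adjusted p = 0.0343), MET32 being higher and MET31 lower. The smallest p that 4 arrays against 4 can give is 0.0286. Without wild type replicate 1 the difference between 58F and wild type was -0.31 and passed (exact permutation, adjusted p = 0.0429), and that between 112A and wild type was 0.39 and did not (adjusted p = 0.0571). That call was also lost without wild type replicate 2, 3 or 4 (differences of 0.45 to 0.48, adjusted p = 0.0686), although the arrays still did not overlap.

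SAM2 minus SAM1 was -0.22, -0.15, -0.31 and -0.14 in 58F, -0.42, -0.48, -0.86 and -0.48 in 112A, against -1.53, -1.02, -1.19 and -1.01 in wild type. The arrays of the 3 groups did not overlap. This difference between the genes rose by 0.36 in 58F relative to 112A. Relative to wild type it rose by 0.98 in 58F and by 0.62 in 112A. Each of these shifts had an exact 2-sided permutation p = 0.0286 (adjusted p = 0.0343). In 58F relative to 112A both genes were called lower, with changes of -0.38 for SAM2 and -0.74 for SAM1. Without wild type replicate 1 the shift for 58F with wild type was 0.87 (exact permutation, adjusted p = 0.0429) and that for 112A with wild type was 0.51 (adjusted p = 0.0571). Leaving out wild type replicate 2, 3 or 4 ended both of these calls (exact permutation, adjusted p = 0.0571 for 58F and 0.0686 for 112A), with shifts of 0.98 to 1.04 for 58F and 0.62 to 0.68 for 112A. The arrays did not overlap in any of these fits. The 6 pair comparisons were adjusted together, so these adjusted p-values also depend on the other comparisons.

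**Figure D3:**
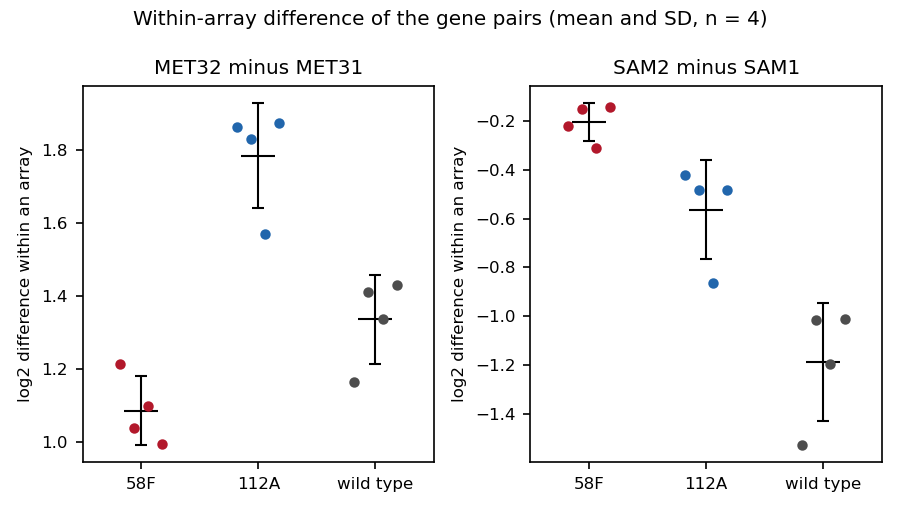
Within-array log2 difference of MET32 minus MET31 (left) and SAM2 minus SAM1 (right) on each array of 58F, 112A and wild type, with mean and SD of 4 arrays. MET32 minus MET31 averaged 1.09 in 58F and 1.78 in 112A, against 1.34 in wild type; SAM2 minus SAM1 averaged -0.21, -0.56 and -1.19 in the same order, with no overlap between groups.

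For the 3 genes with the widest span of group means, the genes with the most similar profiles were found as the smallest root mean square distance over 12 arrays, after each gene's mean over the arrays was subtracted. The profiles contain the group differences already described and are a description. For SAM1 the nearest were NIP7, UTP15 and RCL1, at distances of 0.10, 0.11 and 0.11 against a median of 0.53 over all genes. NIP7, needed for assembly of the large ribosomal subunit, averaged -4.78 in 58F and -4.02 in 112A, against -3.56 in wild type. UTP15, a component of the small subunit processome, averaged -3.56 in 58F and -2.97 in 112A, against -2.45 in wild type. RCL1, which acts in processing of pre-rRNA, averaged -4.15 in 58F and -3.56 in 112A, against -3.12 in wild type.

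For MET32 the nearest profiles were those of SUL2, AMF1 and MET5, at 0.06, 0.08 and 0.09 against a median of 0.33 over all genes. SUL2, a sulfate permease, averaged 1.16 in 58F and 1.74 in 112A, against 1.60 in wild type. AMF1, an ammonium transporter, averaged -4.10 in 58F and -3.44 in 112A, against -3.54 in wild type, and MET5, the beta subunit of sulfite reductase, averaged 0.08, 0.68 and 0.70 in that order. SUL2 and MET5 are also on the list of sulfur genes below. For SAM2 the nearest were AAD10, of the aryl-alcohol dehydrogenase family, the histone gene HTA2 and the GTPase gene RBG1, at 0.08 each, against a median of 0.26. AAD10 averaged -1.89 in 58F and -1.51 in 112A, against -1.66 in wild type.

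**Figure D4:**
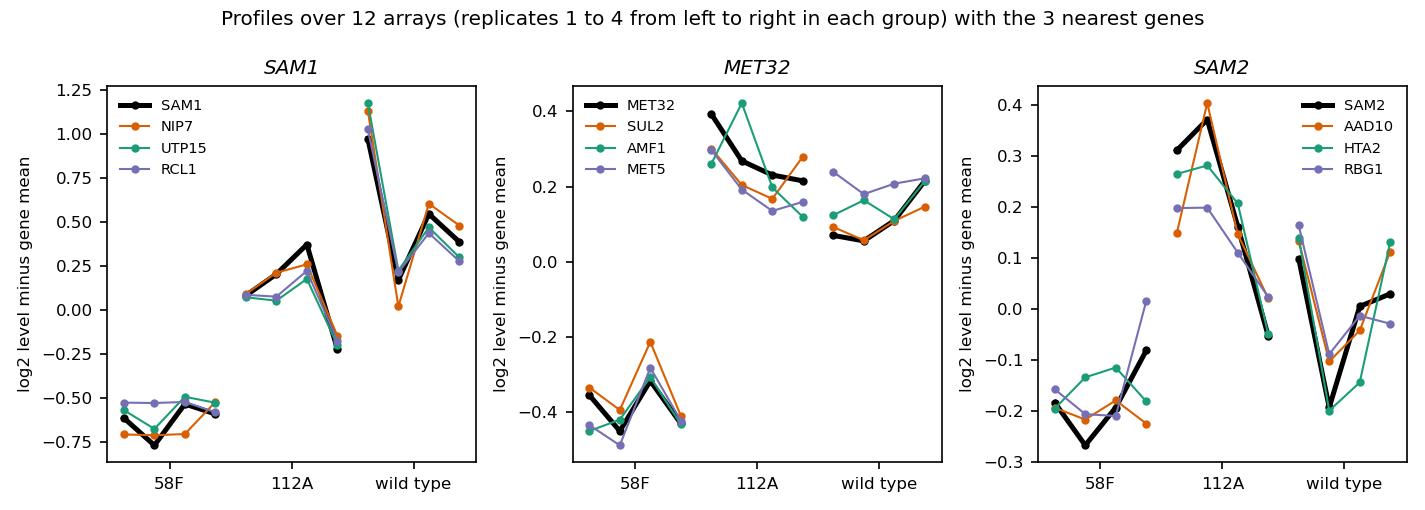
Centred log2 levels on the 12 arrays (replicates 1 to 4 of 58F, 112A and wild type from left to right) of SAM1, MET32 and SAM2 (black) with the 3 genes of nearest profile. The SAM1 panel has its peak on wild type replicate 1, the array that stands apart in overall brightness, and a low point within 112A on replicate 4.

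A list of 23 genes of sulfate uptake and reduction and of methionine and cysteine synthesis was followed beside the regulators. Which of these genes Met4 controls was not tested. In 58F relative to 112A, 19 of 23 were called lower and 0 higher, with a median change of -0.39. In 58F relative to wild type, 20 were lower and 1 was higher (median -0.45), and in 112A relative to wild type 10 were lower and 2 higher (median -0.14). Of all genes, 32.0%, 61.9% and 48.3% were called in these comparisons, in the same order, and 17.9%, 32.2% and 25.5% were called lower. In the last, 11 of the 23 were not called, so the share called was close to that of all genes. The list was chosen with earlier results of these data known. Without wild type replicate 1 the counts were 19 lower and 0 higher, 20 lower and 1 higher, and 7 lower and 1 higher. The shares of all genes called were then 38.7%, 61.5% and 49%, and the list fell below the last of these.

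SUL1, a high-affinity sulfate permease, changed by -1.56 ± 0.20 between 58F and 112A (limma, adjusted p = 0.000267) and by -2.19 ± 0.20 between 58F and wild type (adjusted p = 2.91e-06), the largest changes of the 23 genes in these comparisons. Between 112A and wild type it changed by -0.64 ± 0.20 (adjusted p = 0.0197), less than HOM3 and CYS3. MET14, the kinase of the second step of sulfate activation, fell by 0.95 ± 0.11 in 58F relative to 112A, and MET16, which reduces the activated sulfate, fell by 0.88 ± 0.08. MET2, which acetylates homoserine, fell by 0.70 ± 0.06 in the same comparison. HOM3, the aspartate kinase at the head of the homoserine branch, fell by 1.61 ± 0.10 in 58F and by 0.98 ± 0.10 in 112A, each relative to wild type. MET6, the methionine synthase, fell by 1.04 ± 0.08 in 58F and by 0.63 ± 0.08 in 112A relative to wild type. CYS3, which makes cysteine from cystathionine, ran the other way: it rose by 0.55 ± 0.07 in 58F and by 0.66 ± 0.07 in 112A relative to wild type, and its change for 58F with 112A was -0.11 ± 0.07 (adjusted p = 0.276).

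Of 12 genes of S-adenosylmethionine use, recycling and uptake, 7 were called lower and 0 higher in 58F relative to 112A (median -0.35), 8 lower and 2 higher in 58F relative to wild type (median -0.40), and 3 lower and 2 higher in 112A relative to wild type (median -0.00). The shares of all genes called in these comparisons were 32.0%, 61.9% and 48.3%, and the 5 of 12 called in the last are a smaller share than that of all genes. In 58F relative to 112A, the methionine permease gene MUP3 fell by 0.70 ± 0.06 (limma, adjusted p = 5.88e-05), MMP1, a permease for S-methylmethionine, by 0.70 ± 0.09 and MHT1, a homocysteine methyltransferase, by 0.63 ± 0.09. OPI3, which methylates phospholipids with S-adenosylmethionine, fell by 0.45 ± 0.06. In these 4 genes the changes for 112A with wild type lay between -0.06 and 0.09 and did not pass the test. ERG6, the sterol methyltransferase, rose by 0.70 ± 0.08 in 58F and by 0.81 ± 0.08 in 112A relative to wild type. The adenosine kinase gene ADO1 rose by 0.30 ± 0.07 in 112A relative to wild type, while the S-adenosylmethionine permease gene SAM3 fell by 0.34 ± 0.06 and SAM4, a homocysteine methyltransferase, by 0.30 ± 0.08.

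MET30 acts within the SCF ubiquitin ligase, and 7 genes of its core and of other F-box subunits were followed beside it. In each comparison 1 of the 7 was called higher and 0 lower, with a median of 0.01 for 58F with 112A and of 0.06 for 58F with wild type. The median for 112A with wild type was -0.02. Calls in either direction took in 32.0%, 61.9% and 48.3% of all genes tested, in the same order. The 1 of 7 called here is a smaller share than each of these. CDC34, the ubiquitin-conjugating enzyme, was 0.17 ± 0.06 higher in 58F than in 112A (limma, adjusted p = 0.0373). CDC4, another F-box subunit, was 0.16 ± 0.05 higher in 58F (adjusted p = 0.0124) and 0.15 ± 0.05 higher in 112A (adjusted p = 0.0246), each relative to wild type. Across 22 alternatives the number called higher ranged from 0 to 2 between 58F and 112A, from 1 to 3 between 58F and wild type and from 0 to 2 between 112A and wild type. The number called lower was 0 throughout for 58F with 112A. It reached 1 for 58F with wild type without 58F replicate 4, and 1 for 112A with wild type under normexp background and without wild type replicate 1.

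**Figure D5:**
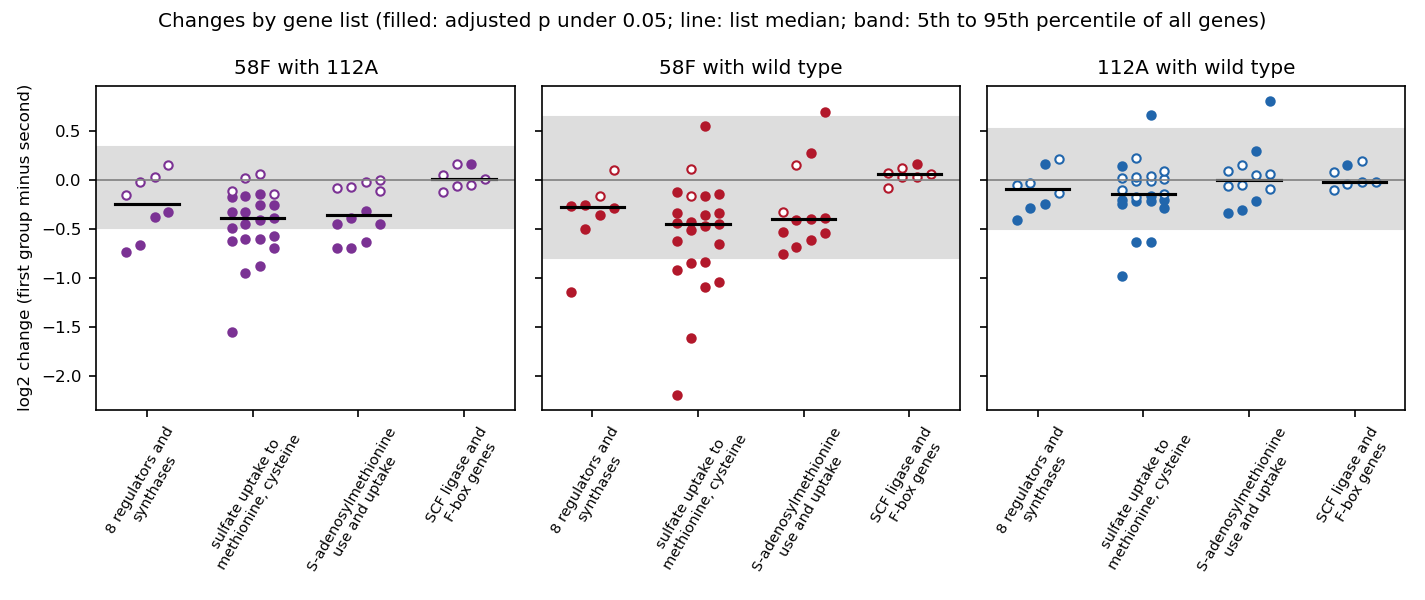
Log2 change of each gene (points; filled at adjusted p under 0.05) of the 8 regulators and synthases and the 3 other lists, with a panel for each comparison (58F with 112A on the left, 58F with wild type in the middle); black lines are list medians and the grey band runs from the 5th to the 95th percentile of all genes. The sulfur list has medians of -0.39, -0.45 and -0.14 in that order, and the SCF list lies close to 0 in all 3.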

How the data were processed

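Per the file headers, each array was read by Agilent Feature Extraction 10.7.3.1, whose processed signal is a Cy3 intensity with background subtracted and spatial trend removed, deposited by the authors without scaling between arrays. A second file, deposited by the authors, gives log2 values of 5297 probes with the 75th percentile at 12.8 on every array; it served as an alternative. Here, log2 of the processed signal had the array's 75th percentile subtracted, spots of a probe were averaged without outlier spots (25 to 125 per array, 0 for the 8 genes), and the brightest probe stood for a gene. Genes well above background on at least 4 of 12 arrays were tested (5827 of 6224) with limma 3.58.1 in R 4.3.3, all 12 arrays in 1 fit, and Benjamini-Hochberg adjustment over all genes; 5642 genes matched R64 names. The procedure was tested on simulated data without a slide difference, so that test says nothing on slide and group. Pairs were compared by exact permutation. The number of arrays limits the precision.

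The 8 genes, the 3 lists and the tests were chosen with earlier results of these data known. Named genes are the 8, up to 4 called genes of each list with the largest change per comparison, the 3 nearest profiles of the 3 genes with the widest span, and LEU2. Alternatives were normexp on median signals with offset 50, quantile and cyclic loess scaling, no filter or all 12 arrays above background, the authors' table, 2 groups only, a trended robust prior, the replicate number as a block, and leaving out each array. A percentile without outlier spots was chosen after seeing the data. Coordinates are not given because the files use another build than the annotation.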

Additional observations from a re-analysis of the deposited data

Results flagged for a closer look

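Each gene's 4 arrays in each group were examined for an array far from the rest, by Dixon's ratio of the gap to the whole range, in 24 combinations of gene and group. Chance marks about 1 in 20 groups, and 3 of 24 were past its 95% critical value. MET28 on 112A replicate 3 was at 0.588, well below the other 112A arrays, which lay close together. MET30 on the same array was at 2.44, also well below the other 112A arrays. That array had the smallest share of gene spots well above background, 86.9%, and the part this plays was not tested. MET4 on wild type replicate 2 was at 0.03 (0.029), above the other 3 wild type arrays.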

How the results depend on the processing

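Over the 24 member changes and 22 alternatives, 489 of 528 results kept direction and side of the threshold, 24 lost their call and 9 gained one. The other 6 changed sign and were called in neither fit. MET30 for 112A with wild type became 0.081 under quantile scaling and 0.046 under cyclic loess scaling, and ran from -0.121 to 0.033 when single arrays were left out, above 0 without 112A replicate 3 or wild type replicate 2. MET4 for 58F with 112A became 0.0017 under quantile scaling. MET31 for 58F with 112A ran from -0.019 to 0.087 when single arrays were left out, below 0 without 112A replicate 4. The changed calls concern MET30, SAM1, MET32, CBF1, MET28 and SAM2 and are given with the genes. The number of the 8 genes called was 3 to 5 for 58F with 112A, 5 to 7 for 58F with wild type and 2 to 4 for 112A with wild type, while the share of all genes called was 23.9% to 38.7%, 56.5% to 65.1% and 40.7% to 51.3%. For 112A with wild type, 2 of the 8 genes were called when only the 2 groups were fitted, and 2 to 4 when single arrays were left out, with 2 called without 112A replicate 1, wild type replicate 1 or wild type replicate 3. The cause was not tested. Same-numbered arrays are not paired by the labels, and deviations of same-numbered arrays correlated at -0.17 to 0.19; with a replicate block 4, 6 and 4 of the 8 genes were called, as without it, and 28.9%, 60.3% and 45.2% of all genes.

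Pair differences were rerun under the scalings, the authors' values and leaving out single arrays; the other settings do not apply to them. MET32 minus MET31 for 58F with wild type was -0.39 and passed under normexp background, and ran from -0.31 to -0.22 when single arrays were left out. With single arrays left out, MET32 minus MET31 for 112A with wild type was 0.39 to 0.52, SAM2 minus SAM1 for 58F with wild type 0.87 to 1.04, and SAM2 minus SAM1 for 112A with wild type 0.51 to 0.72. These lost their call without any one wild type array, except for SAM2 minus SAM1 in 58F without wild type replicate 1. They kept it without any single 58F or 112A array. Leaving out an array of a compared group leaves 35 in place of 70 splits, and the 6 pair comparisons are adjusted together. An adjusted p therefore also depends on the other comparisons, and the part this plays was not tested. For 58F with 112A, the adjusted p without a wild type array is not given. In the sulfur list the number higher in 112A than in wild type ranged from 1 to 3, against 2.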
